A study of Homo sapiens with 7 samples.

Results

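JeKo-1 and RL, labelled as lines of mantle cell lymphoma (MCL), a B-cell cancer, were compared for how their transcripts responded to a BTK inhibitor. The quantity tested was the difference between the inhibitor effects of the lines, (treated minus control in JeKo-1) minus (treated minus control in RL), on the log2 scale, for every gene counted in both lines. There were 4 groups of libraries: JeKo-1 cells given the inhibitor for 6 h (2 libraries), JeKo-1 control cells (1 library), RL cells given the inhibitor for 6 h (2 libraries) and RL control cells (2 libraries). All 7 libraries of the series entered the comparison, and 15845 of 22257 genes had enough reads to be tested. The agent is named as a BTK inhibitor on the samples and as ibrutinib in the series title, its dose is not given, and the controls are described as untreated. In the authors' deposited JeKo-1 table the column of treated to control ratios is headed as an ALK inhibitor, while the library columns of the same table name the BTK inhibitor, and the labels do not resolve the conflict, which touches the JeKo-1 effect and every difference. The labels leave it unsaid whether each library is its own culture, and the p-values therefore reflect spread among libraries that may be technical. The JeKo-1 effect, and with it every difference, rests on 1 control library, whose error was taken from the spread within the other groups.

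BTK is a kinase below the B-cell receptor (BCR) that activates phospholipase C gamma, which signals to calcium, the ERK kinases and NF-kB. Many MCL cells depend on that signal, and BTK inhibitors such as ibrutinib, which binds the kinase covalently, are used against the disease. Genes of the immediate early class, which the receptor switches on without new protein synthesis, are a common readout of the pathway, and MYC, a driver of ribosome production and growth, lies downstream of it.

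The libraries held 32.4 to 56.8 M reads summed over all transcripts (many reads are counted for several transcripts of a gene), and 19.1 to 33.5 M when 1 transcript was kept per gene. B-lineage markers (CD79A, CD79B, MS4A1, PAX5 and CD22) summed to 901 and 921 CPM (read counts scaled to library size) in treated JeKo-1 cells, against 872 CPM in the JeKo-1 control, and to between 2260 and 2670 CPM in the RL libraries. Of the markers that define MCL, CCND1 (cyclin D1) stood at 380 to 430 CPM in JeKo-1 and 550 to 677 CPM in RL, and SOX11 at 34.4 to 39.9 CPM in JeKo-1 and 149 to 174 CPM in RL. CD5, a surface antigen of most MCL, stood at 0.101 to 0.283 CPM in JeKo-1 and 14.8 to 18.2 CPM in RL. Markers of T and NK cells summed to at most 6.72 CPM, those of myeloid cells to at most 13.2 CPM and those of red cells to at most 12.1 CPM in any library. Epithelial and stromal markers summed to 4.10 to 6.42 CPM in JeKo-1 and 99.7 to 103 CPM in RL, at about the same level in treated and control RL cells.

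The inhibitor effect differed between the lines in 2815 of 15845 genes, which is 17.8% of those tested (edgeR's quasi-likelihood F test of the difference, Benjamini-Hochberg adjusted p under 0.05, here termed called). The effect was more positive in JeKo-1 in 1397 genes, which is 8.82% of those tested, and more negative in JeKo-1 in 1418 genes, or 8.95%. A more positive effect covers a larger rise in JeKo-1 as well as a smaller fall. The difference was at least 2-fold in 520 of the called genes, of which 135 were more positive and 385 more negative in JeKo-1, and it was under 1.5-fold in 1569. Among the 11370 genes that averaged at least 1 CPM in each line, 2610 differed, or 23.0%. Of these, 83 were at least 2-fold more positive and 243 at least 2-fold more negative in JeKo-1. The rest of the 520 averaged under 1 CPM in at least 1 line, where folds rest on few reads. The number of genes more negative in JeKo-1 was 943 without replicate 1 of treated JeKo-1 and 774 with DESeq2's Wald test.

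The inhibitor itself changed 3521 genes in JeKo-1 (22.2% of those tested, 1684 up and 1837 down) and 4585 genes in RL (28.9%, 2167 up and 2418 down). Of the 2815 genes whose effect differed, 946 were called in JeKo-1 and not in RL, 1080 in RL and not in JeKo-1, 347 in both lines with the same sign, and 154 in neither line. In 255 of the 347 genes with the same sign the larger change was in JeKo-1, and in 92 it was in RL. The remaining 288 genes, 1.82% of all genes tested, moved in opposite directions with both effects called. Of these, 132 rose in JeKo-1 and fell in RL, and 156 fell in JeKo-1 and rose in RL. Both effects were at least 1.5-fold in 30 of the 288. Without replicate 1 of treated JeKo-1 there were 162 opposite genes, and with DESeq2 there were 153.

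**Figure D1:**
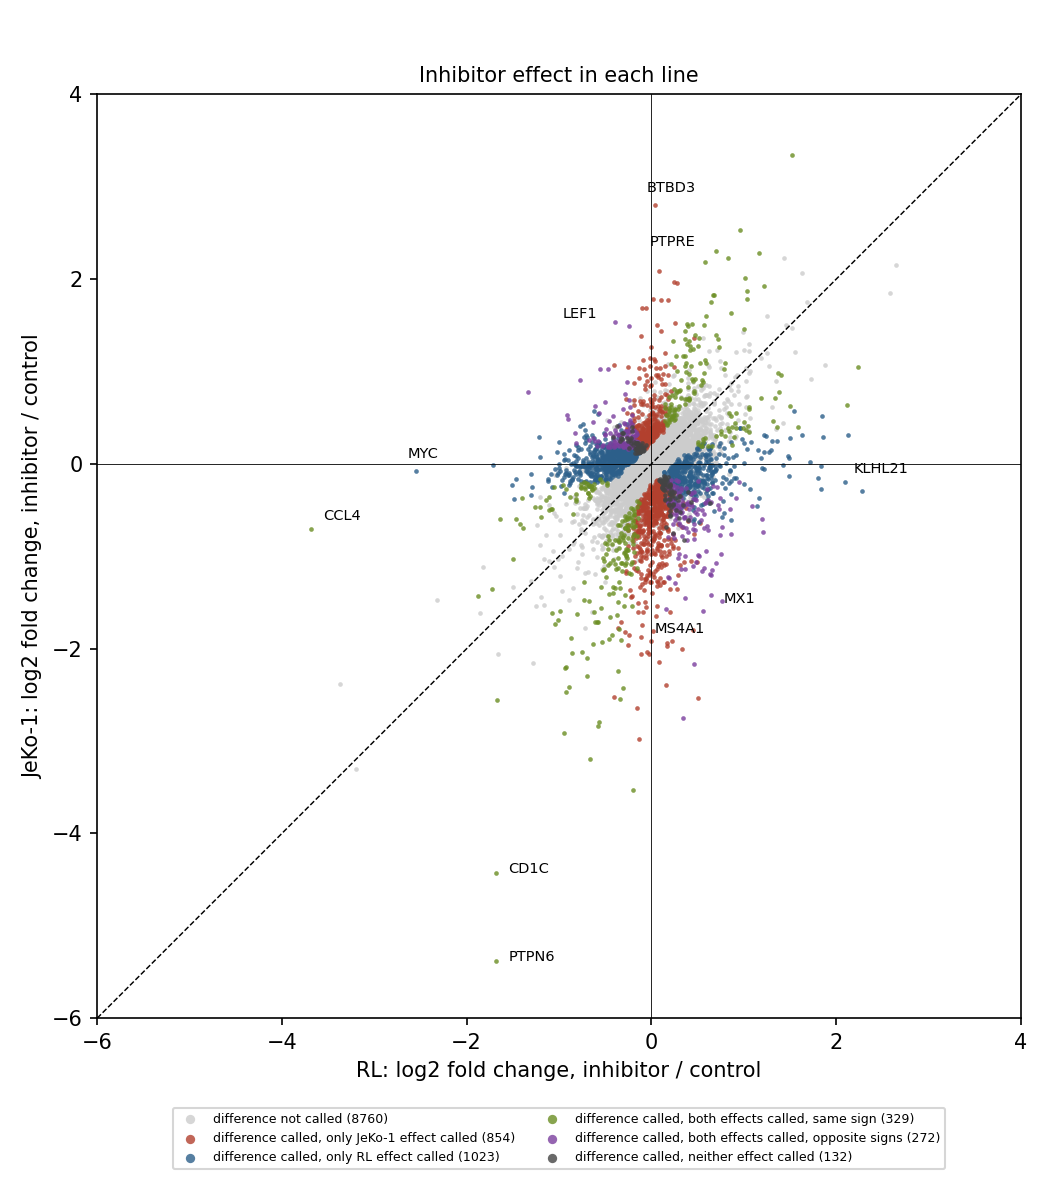
Log2 fold change of inhibitor over control in JeKo-1 (vertical axis) against RL (horizontal axis) for the 11370 genes that averaged at least 1 CPM in each line, with the dashed line marking equal effects. Points are coloured by whether the difference of effects was called and in which line the effect itself was called, with the number of genes in the key, and the 272 purple points at the upper left and lower right moved in opposite directions.

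Across these 11370 genes the effects in the lines had a Pearson r of 0.36 and a Spearman rho of 0.30, given as a description across genes, which are not independent and share each line's libraries. Equality was read from intervals and not from missed p-values. A response was counted as shared when it was called in both lines with the same sign and the 95% interval of the difference lay within a 1.5-fold change either way. By that rule 826 genes were shared, 5.21% of those tested, with 441 up and 385 down. In 83 of the 826 the difference was called although it was small. With DESeq2 467 genes met the rule.

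The most negative difference among well expressed genes was in PTPN6, which encodes the phosphatase SHP-1, a brake on BCR signalling. PTPN6 (transcript NM_080549) had 2.57 and 3.25 CPM in treated JeKo-1 cells, against 122 CPM in the JeKo-1 control, and 21.2 and 21.8 CPM in treated RL cells, against 69.0 and 68.9 CPM in RL controls. It fell in both lines, with treated libraries below controls in each, and fell further in JeKo-1. Here and for every gene below, the value after ± is the standard error of the log2 value from the fit of all 7 libraries. The log2 fold change was -5.39 ± 0.09 in JeKo-1 and -1.68 ± 0.06 in RL, and the log2 difference was -3.71 with a 95% interval of -3.95 to -3.46 (adjusted p = 9.35e-14). TLR10, a Toll-like receptor of B cells, had 0.961 and 0.650 CPM in treated JeKo-1 cells, against 9.31 CPM in the JeKo-1 control, and 155 and 153 CPM in treated RL cells, against 179 and 174 CPM in RL controls. Its log2 difference was -3.33 ± 0.17 (adjusted p = 1.08e-10), and most of it came from a fall in JeKo-1 of -3.53 on the log2 scale. CD1C, which presents lipid antigens, fell in both lines, to 0.141 and 0.352 CPM in treated JeKo-1 cells, against 5.40 CPM in the JeKo-1 control, and to 88.3 and 82.0 CPM in treated RL cells, against 265 and 281 CPM in RL controls. The same pattern, a fall in both lines that was deeper in JeKo-1, held for MEF2C, a transcription factor used in B-cell activation (log2 difference -2.53 ± 0.28), for SLA, an adaptor that limits antigen receptor signalling (-2.26 ± 0.16), and for DGKG, a diacylglycerol kinase (-2.23 ± 0.33). MEF2C and DGKG were low in JeKo-1, with 10 and 10 reads in treated cells against 101 in the control, and 15 and 7 against 84.

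Of the other genes with a strongly negative difference, some fell in JeKo-1 only by the call, and some rose in RL. SRGN, a proteoglycan of secretory granules, had 3.17 and 2.41 CPM in treated JeKo-1 cells, against 17.4 CPM in the JeKo-1 control, and 13.5 and 16.9 CPM in treated RL cells, against 16.6 and 17.5 CPM in RL controls. Its RL libraries overlapped, and the RL log2 fold change was -0.15 ± 0.10. CYTH4, an exchange factor for ARF GTPases, and IL21R, the interleukin 21 receptor, likewise fell in JeKo-1 (log2 -2.98 ± 0.18 and -2.14 ± 0.28), with RL log2 values of -0.14 ± 0.08 and 0.08 ± 0.07. TSPAN9, a tetraspanin, had 1.36 and 1.63 CPM in treated JeKo-1 cells, against 1.83 CPM in the JeKo-1 control, and rose in RL to 8.23 and 7.90 CPM in treated cells, against 1.73 and 1.58 CPM in controls. KLHL21, an adaptor of a ubiquitin ligase used in cell division, had 26.1 and 30.1 CPM in treated JeKo-1 cells, against 32.1 CPM in the JeKo-1 control, and 145 and 121 CPM in treated RL cells, against 32.4 and 29.7 CPM in RL controls (log2 difference -2.29 ± 0.13, adjusted p = 5.35e-10). The library kit did not mark strand, so reads of KLHL21 and of any gene that overlaps it on the other strand could not be told apart. SLC2A5, which encodes a fructose transporter, had a log2 fold change of -0.16 ± 0.09 in JeKo-1 and rose in RL by 1.81 ± 0.06 (log2 difference -1.97 ± 0.11).

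At the other end, among genes that averaged at least 5 CPM in a group and at least 1 CPM in each line, the most positive difference was in CCL4, a chemokine that B cells release after BCR stimulation. CCL4 had 2.21 and 2.68 CPM in treated JeKo-1 cells, against 3.98 CPM in the JeKo-1 control, and 1.44 and 1.47 CPM in treated RL cells, against 18.3 and 19.3 CPM in RL controls. It fell in both lines, by -0.70 ± 0.17 in JeKo-1 and -3.69 ± 0.12 in RL on the log2 scale (log2 difference 2.98 ± 0.21, adjusted p = 1.41e-08). For the neighbouring chemokine CCL3, whose near-identical copies can share reads, the log2 fold change was -2.38 ± 0.28 in JeKo-1 and -3.37 ± 0.14 in RL, and the difference of 0.99 ± 0.35 did not pass the test (adjusted p = 0.0564, and between 0.0207 and 0.0448 under 6 of the 15 alternatives).

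MYC, which lies downstream of the BCR, fell in RL and was not called in JeKo-1. MYC (transcript NM_002467) had 264 and 275 CPM in treated JeKo-1 cells, against 284 CPM in the JeKo-1 control, and 3.29 and 3.75 CPM in treated RL cells, against 22.4 and 19.5 CPM in RL controls. The JeKo-1 libraries lay close together with log2 fold change -0.08 ± 0.07, while both treated RL libraries were far below both controls, with log2 fold change -2.55 ± 0.09 (log2 difference 2.47, 95% interval 2.23 to 2.72, adjusted p = 6.18e-11). Already in control cells the level was an order of magnitude higher in JeKo-1. Of the 11 tested genes of the MYC network (MYC, its partners and antagonists), only MYC and MGA were called for the difference under the main test, and MGA lost its call without RL control replicate 2, RL treated replicate 2 or JeKo-1 treated replicate 1. MXD4, an antagonist of MYC, was counted with the quiescence genes and not among these 11. Its difference was called too (log2 difference -1.12 ± 0.27, adjusted p = 0.00632), with a rise in RL of 1.19 ± 0.19. With DESeq2 the MXD4 call was lost (adjusted p = 0.0572).

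Several genes rose in JeKo-1 with little or no change in RL. BTBD3, a nuclear protein with a BTB domain, had 147 and 142 CPM in treated JeKo-1 cells, against 20.7 CPM in the JeKo-1 control, and 7.68 and 9.17 CPM in treated RL cells, against 7.87 and 8.78 CPM in RL controls (log2 difference 2.77 ± 0.13, adjusted p = 5.47e-11). PCDH9, a protocadherin, had 189 and 176 CPM in treated JeKo-1 cells, against 46.7 CPM in the JeKo-1 control, and between 2.73 and 3.98 CPM in the RL libraries. ARHGAP31, an inactivator of RAC and CDC42, and RAPGEF5, an activator of RAP GTPases, had log2 differences of 1.77 ± 0.11 and 1.58 ± 0.18, with RL effects of 0.02 ± 0.06 and 0.19 ± 0.10. C10orf10, PTPRE (a receptor tyrosine phosphatase), C18orf1 and TSHR (the thyrotropin receptor) rose in both lines and further in JeKo-1, with log2 differences between 1.57 and 1.81. C10orf10 reached 72.8 and 78.0 CPM in treated JeKo-1 cells, against 7.43 CPM in the JeKo-1 control, and 78.7 and 73.2 CPM in treated RL cells, against 27.3 and 25.3 CPM in RL controls. The treated cells of the lines thus stood at much the same C10orf10 level, and the controls did not.

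**Figure D2:**
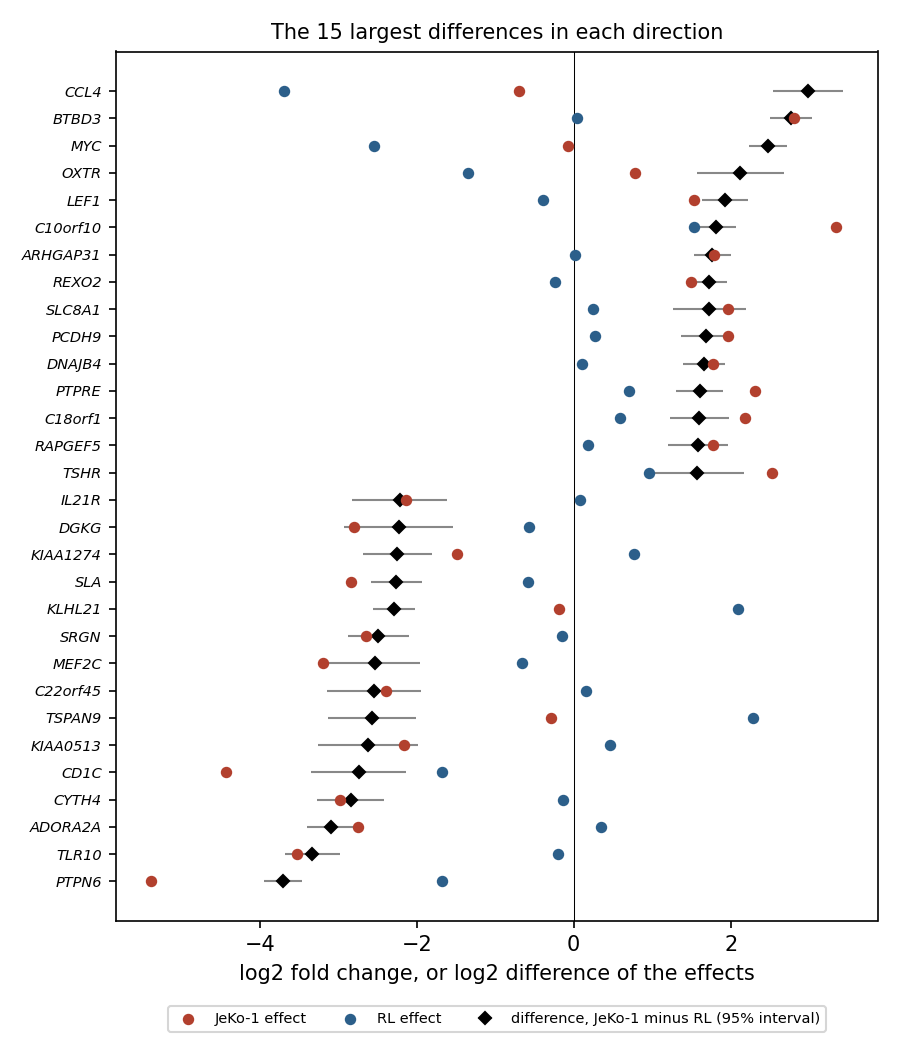
The 15 genes with the most positive and the 15 with the most negative called difference among genes that averaged at least 5 CPM in a group and at least 1 CPM in each line. Red and blue points give the log2 fold change in JeKo-1 and in RL, and black diamonds the difference with its 95% interval, from 2.98 for CCL4 to -3.71 for PTPN6.

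**Figure D3:**
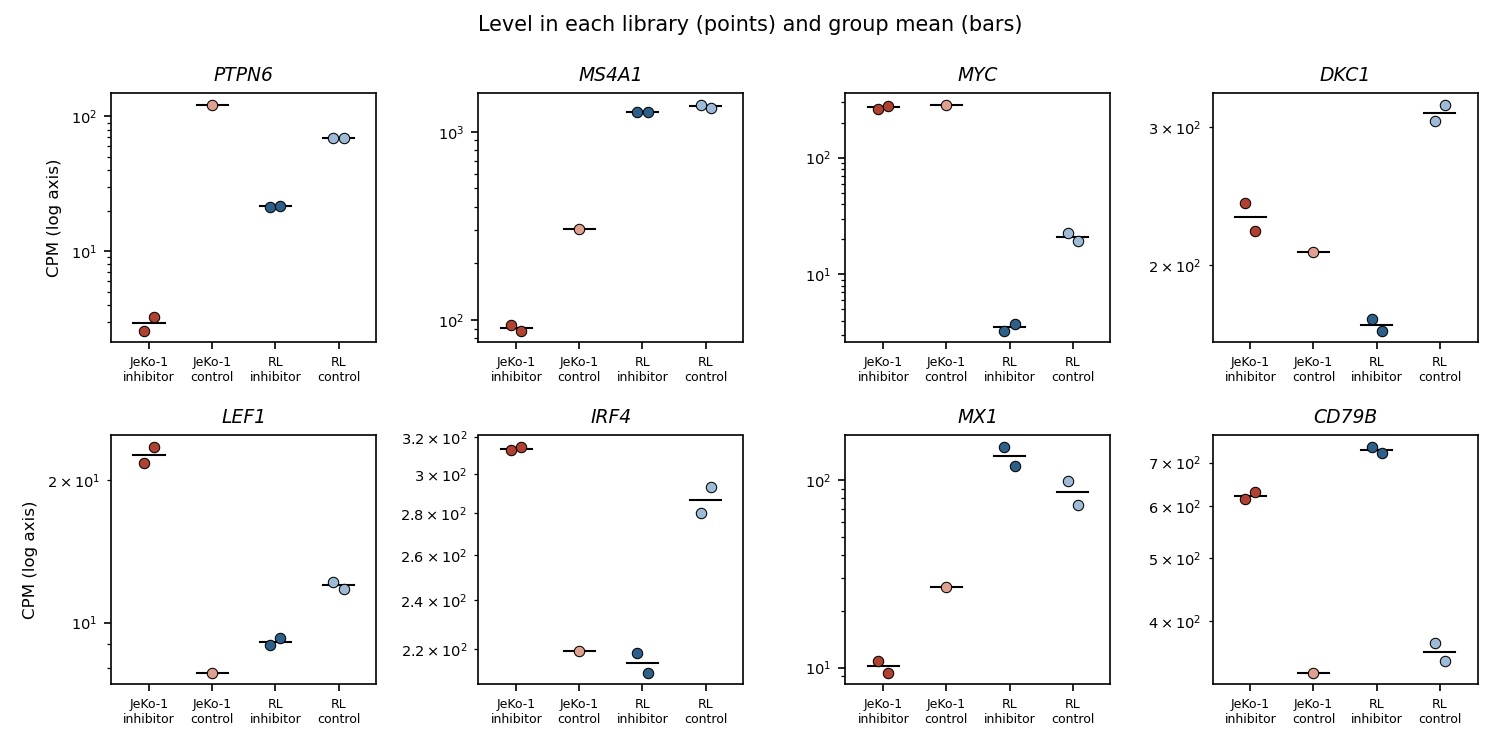
CPM on a log axis in each library (points) with the group mean (bars) for 8 genes, with the treated group left of its control in each line. PTPN6 fell in both lines, MS4A1 fell in JeKo-1, MYC and DKC1 fell in RL, LEF1, IRF4 and MX1 moved in opposite directions, and CD79B rose in both lines.

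Genes with opposite calls were ranked by the smaller of the effects. Among those that rose in JeKo-1 and fell in RL was ITGA4, the alpha 4 integrin used in lymphocyte homing. ITGA4 had 172 and 159 CPM in treated JeKo-1 cells, against 115 CPM in the JeKo-1 control, and 12.6 and 12.8 CPM in treated RL cells, against 24.4 and 23.7 CPM in RL controls (log2 difference 1.44 ± 0.09, adjusted p = 3.83e-09). IRF4, a transcription factor of activated B cells and plasma cells that MCL lines can depend on, had 313 and 315 CPM in treated JeKo-1 cells, against 219 CPM in the JeKo-1 control, and 219 and 211 CPM in treated RL cells, against 280 and 293 CPM in RL controls. The IRF4 level of treated JeKo-1 cells lay above every other library, and those of the JeKo-1 control and treated RL cells were alike (log2 difference 0.93 ± 0.08, adjusted p = 7.04e-08). LEF1, a transcription factor of the WNT pathway active in B-cell precursors, had 21.8 and 23.6 CPM in treated JeKo-1 cells, against 7.84 CPM in the JeKo-1 control, and 8.95 and 9.29 CPM in treated RL cells, against 12.2 and 11.8 CPM in RL controls. The estrogen receptor gene ESR1, the oxytocin receptor gene OXTR, the cold shock protein gene CSDA, the cytoskeletal gene GAS7, CERKL, the transcription factor gene ETS2 and DMD (dystrophin) had the same signs, with log2 differences between 0.92 and 2.12. The call for DMD was lost in the robust fit (adjusted p = 0.103).

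Among the genes that fell in JeKo-1 and rose in RL was UNC93B1, which carries Toll-like receptors to endosomes. UNC93B1 had 3.79 and 3.41 CPM in treated JeKo-1 cells, against 8.30 CPM in the JeKo-1 control, and 57.9 and 52.3 CPM in treated RL cells, against 37.3 and 33.2 CPM in RL controls (log2 difference -1.85 ± 0.15, adjusted p = 7.82e-08). SLC12A7, a potassium chloride cotransporter, had 10.5 CPM in each treated JeKo-1 library, against 17.7 CPM in the JeKo-1 control, and 58.6 and 53.6 CPM in treated RL cells, against 31.6 and 30.0 CPM in RL controls. IL10RA, the interleukin 10 receptor chain, and FAM46C, a poly(A) polymerase gene of plasma cells, fell in JeKo-1 (log2 -0.68 ± 0.15 and -0.98 ± 0.22) and rose in RL (0.76 ± 0.06 and 0.75 ± 0.06). ADORA2A, an adenosine receptor, had the largest difference among the opposite genes of this kind at the stated levels, -3.10 ± 0.14. It had 1.67 and 1.90 CPM in treated JeKo-1 cells, against 12.03 CPM in the JeKo-1 control, and 41.7 and 41.0 CPM in treated RL cells, against 33.6 and 31.5 CPM in RL controls.

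A few large differences involved genes that averaged under 1 CPM in one of the lines. RAG1, a subunit of the recombinase that assembles antigen receptor genes in precursor B cells, had 18167 and 18347 reads in treated JeKo-1 cells, against 918 reads in the JeKo-1 control, and 9 and 44 reads in treated RL cells, against 9 and 23 reads in RL controls. It rose by 4.44 ± 0.11 on the log2 scale in JeKo-1, against 0.63 ± 0.39 in RL (log2 difference 3.81 ± 0.48, adjusted p = 1.18e-05). RAG2, its partner, had 187 and 188 reads in treated JeKo-1 cells, against 9 reads in the JeKo-1 control, and 0 and 1 read in treated RL cells, against 0 and 2 in RL controls, so that its RL effect could not be measured at this depth (adjusted p of the difference 0.0502, and between 0.00328 and 0.0499 under 10 of the 15 alternatives). VPREB1, a chain of the surrogate receptor of precursor B cells, had 1101 and 1210 reads in treated JeKo-1 cells, against 169 in the JeKo-1 control, and 7 and 7 in treated RL cells, against 0 and 0 in RL controls. The VPREB1 difference of -2.77 ± 1.38, a larger estimated rise in RL, was not called (adjusted p = 0.208) and rests on those few RL reads. SLC16A9, a carnitine transporter, had 57 and 71 reads in treated JeKo-1 cells, against 4 in the JeKo-1 control, and 57 and 93 reads in treated RL cells, against 235 and 304 in RL controls. PPAP2B, GBP5, CAMP and KLHL13, each with 228 to 2640 reads in every RL library, had no read in treated JeKo-1 cells and between 4 and 8 reads in the JeKo-1 control, too few for a fold.

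**Figure D4:**
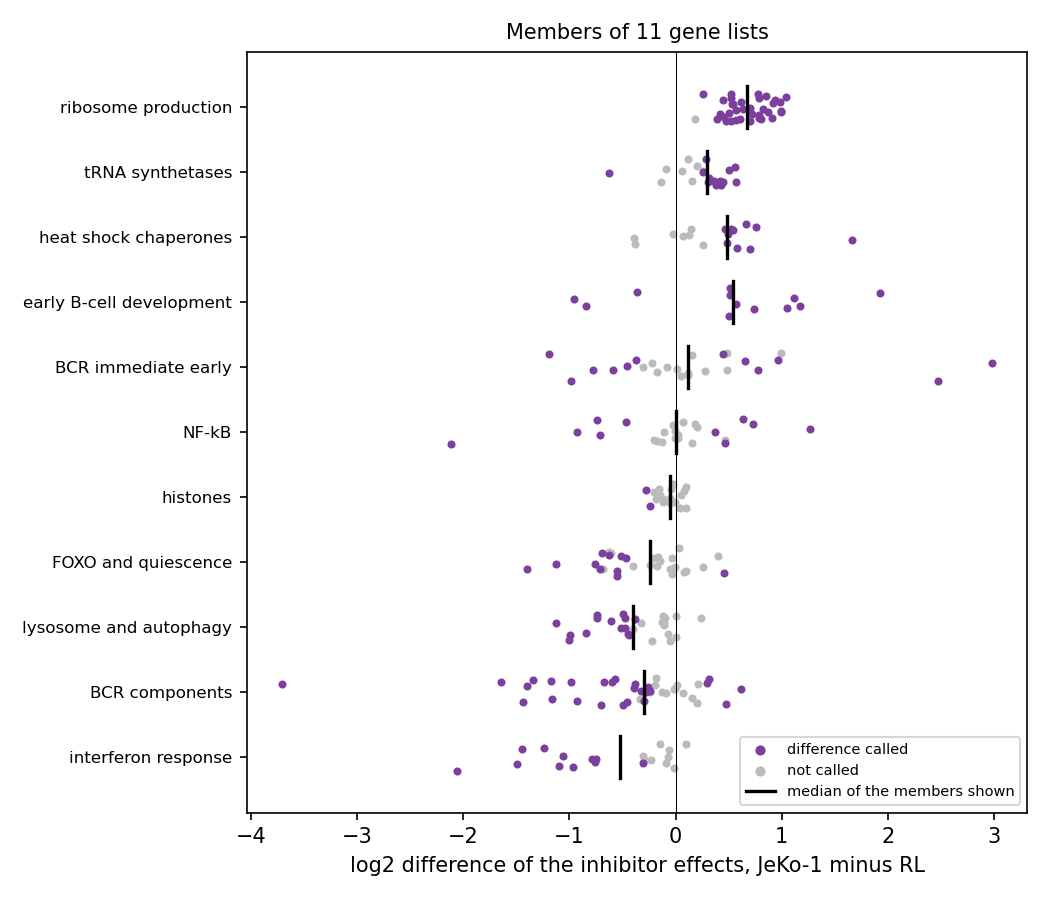
Log2 difference of the inhibitor effects, JeKo-1 minus RL, for members of 11 gene lists that averaged at least 1 CPM in each line, with purple points for members whose difference was called and a bar at the median. Ribosome production genes all lay above 0 with a median of 0.67, and interferon genes lay mostly below 0 with a median of -0.53 among the members shown.

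Gene lists were read as counts of called members, beside 17.8% of all genes and a median log2 difference of 0.00 over all genes. The share was 23.0% among genes that averaged at least 1 CPM in each line. Of 15 genes often used as references, 4 were called (26.7%). Components of the BCR were among the lists with the highest share, with 26 of 40 tested members called (65.0%), 4 more positive and 22 more negative in JeKo-1. In JeKo-1 24 of the 40 fell and 5 rose, and in RL 12 fell and 8 rose. MS4A1, which encodes the antibody target CD20, had 94.1 and 88.1 CPM in treated JeKo-1 cells, against 305 CPM in the JeKo-1 control, and 1268 and 1274 CPM in treated RL cells, against 1389 and 1342 CPM in RL controls (log2 difference -1.64 ± 0.08, adjusted p = 7.41e-11). The inhibitory coreceptors CD72 and CD22 fell in JeKo-1, with log2 differences of -1.44 ± 0.09 and -1.16 ± 0.09, and FCGR2B, the inhibitory Fc receptor, had -1.35 ± 0.12. CD72 also fell in RL, by -0.45 ± 0.06, while the RL effect of CD22 was -0.02 ± 0.05. CD79A, a signalling chain of the receptor, and PLCG2, the phospholipase that BTK activates, fell in JeKo-1 and rose in RL, with log2 differences of -0.57 ± 0.08 and -0.46 ± 0.08.

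Not all BCR components differed. CD79B, the partner chain of CD79A, had 616 and 630 CPM in treated JeKo-1 cells, against 334 CPM in the JeKo-1 control, and 740 and 725 CPM in treated RL cells, against 370 and 348 CPM in RL controls. It rose in both lines, and the log2 difference of -0.13 had a 95% interval of -0.29 to 0.03. SYK, the kinase next to the receptor, rose in both lines and more in JeKo-1 (log2 difference 0.48 ± 0.07). BTK itself, the target of the drug, had 125 and 125 CPM in treated JeKo-1 cells, against 124 CPM in the JeKo-1 control, and 114 and 109 CPM in treated RL cells, against 133 and 140 CPM in RL controls. The small BTK difference of 0.31 ± 0.08 (adjusted p = 0.00937) was not called without RL control replicate 2 (adjusted p = 0.0505).

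Of the 35 immediate early genes, 15 fell and 1 rose in JeKo-1, and 23 fell and 3 rose in RL. The difference was called for 13 (37.1%), 7 more positive and 6 more negative in JeKo-1, with a median of 0.12, and with DESeq2 only 4 were more positive. Beside MYC and CCL4, the more positive genes were NR4A3, CD69, DUSP2, EGR1 and DUSP10. CD69, an early surface marker of activation, had 9.08 and 8.10 CPM in treated JeKo-1 cells, against 9.34 CPM in the JeKo-1 control, and 12.6 and 14.5 CPM in treated RL cells, against 24.1 and 22.5 CPM in RL controls (log2 difference 0.65 ± 0.15). EGR1, a zinc finger transcription factor, stood at no more than 2.09 CPM in any library. Its difference of 1.46 ± 0.43 became 1.12 and lost its call without replicate 2 of treated JeKo-1. EGR1 was also not called, at 1.13, with a replicate block, which in JeKo-1 sets that same library aside. The difference for its relative EGR2 ran the other way, at -1.28 ± 0.45 (adjusted p = 0.0526, and from 0.0293 to 0.0479 under 6 alternatives). NAB2, a corepressor of the EGR proteins, had 16.7 and 18.7 CPM in treated JeKo-1 cells, against 73.1 CPM in the JeKo-1 control, and 7.22 and 8.21 CPM in treated RL cells, against 13.6 and 14.6 CPM in RL controls (log2 difference -1.19 ± 0.13, adjusted p = 1.72e-06). Other members more negative in JeKo-1 were the RNA-binding gene ZFP36L1, KLF10, KLF6, IER5 and CSRNP1.

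Feedback genes of ERK signalling differed in 1 direction by the calls, with 5 of 14 tested members more negative in JeKo-1 and 0 more positive (35.7% called, median log2 difference -0.52). Members fell in both lines, with 7 of the 14 falling and 0 rising in JeKo-1, and 8 falling and 0 rising in RL. DUSP5, an ERK phosphatase, had 1.05 and 0.894 CPM in treated JeKo-1 cells, against 3.98 CPM in the JeKo-1 control, and 73.1 and 68.9 CPM in treated RL cells, against 74.8 and 71.9 CPM in RL controls (log2 difference -1.99 ± 0.19). SPRY1, SPRED2, ETV5 and DUSP7 were the others, each under 7 CPM in every library. With DESeq2 2 of the 14 were more negative, and without replicate 1 of treated JeKo-1 3 were.

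NF-kB subunits, inhibitors and targets had 12 of 34 called (35.3%), 6 each way, with a median log2 difference of 0.01. In both lines most members fell, 19 in JeKo-1 and 26 in RL, and 7 met the rule for a shared response. Of these, NFKB1, NFKB2 and the inhibitor gene TNFAIP3 had log2 differences of 0.19 ± 0.10, 0.02 ± 0.11 and -0.02 ± 0.14. BIRC3, an inhibitor of apoptosis, had 41.9 and 39.9 CPM in treated JeKo-1 cells, against 17.0 CPM in the JeKo-1 control, and 293 and 310 CPM in treated RL cells, against 314 and 291 CPM in RL controls (log2 difference 1.27 ± 0.10, adjusted p = 3.35e-08). NFKBIA, which encodes the inhibitor IkB alpha, fell less in JeKo-1 (-0.22 ± 0.08) than in RL (-0.95 ± 0.05). CD86, a costimulatory ligand, had 3.51 and 3.28 CPM in treated JeKo-1 cells, against 18.2 CPM in the JeKo-1 control, and 32.9 and 31.9 CPM in treated RL cells, against 37.6 and 42.2 CPM in RL controls (log2 difference -2.12 ± 0.13, adjusted p = 2.44e-09). The subunit gene REL fell in JeKo-1 and rose in RL, and the inhibitor gene NFKBIZ rose in JeKo-1 and fell in RL, with log2 differences of -0.71 ± 0.10 and 0.64 ± 0.12. The count of more negative members was 3 with DESeq2 and 3 without replicate 1 of treated JeKo-1.

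Genes of early B-cell development had 13 of 20 tested members called (65.0%), 10 more positive and 3 more negative in JeKo-1, with a median log2 difference of 0.58. In JeKo-1 13 of the 20 rose and 3 fell, and in RL 5 rose and 4 fell. Only 12 of the 20 averaged at least 1 CPM in each line, with a median log2 difference of 0.54. The RL rises include VPREB1, with 7 and 7 reads in treated RL cells against 0 and 0 in RL controls. MME, which encodes the precursor antigen CD10, rose in both lines, to 77.7 and 74.4 CPM in treated JeKo-1 cells, against 15.7 CPM in the JeKo-1 control, and to 42.0 and 40.9 CPM in treated RL cells, against 18.9 and 18.0 CPM in RL controls (log2 difference 1.11 ± 0.10, adjusted p = 2.45e-07). MYB, a transcription factor of blood progenitors, had 202 and 190 CPM in treated JeKo-1 cells, against 95.3 CPM in the JeKo-1 control, and 23.8 and 24.4 CPM in treated RL cells, against 27.1 and 26.0 CPM in RL controls (log2 difference 1.18 ± 0.09). EBF1, a factor that commits cells to the B lineage, rose in JeKo-1 and fell in RL (log2 difference 0.74 ± 0.09), as did CD24 (0.51 ± 0.08). PAX5, the other lineage factor, had a JeKo-1 effect of 0.07 ± 0.07 and fell in RL by -0.45 ± 0.05. The repressor BACH2 had 118 and 122 CPM in treated JeKo-1 cells, against 52.3 CPM in the JeKo-1 control, and 2.11 to 2.73 CPM in the RL libraries. IKZF3 and IKZF1, the zinc finger factors Aiolos and Ikaros, were more negative in JeKo-1 (-0.96 ± 0.09 and -0.36 ± 0.07), and VPREB3 fell in JeKo-1 and rose in RL (-0.84 ± 0.10).

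Ribosome production genes had the highest share of called members, with 35 of 36 more positive in JeKo-1 (97.2%) and 0 more negative, and a median log2 difference of 0.67. In JeKo-1 4 rose and 3 fell, the log2 fold changes lay between -0.36 and 0.28, and their median was 0.00. In RL all 36 fell, with log2 fold changes between -1.06 and -0.17 and a median of -0.65. The count of more positive members stayed between 33 and 35 under the alternatives run. DKC1, the pseudouridine synthase of box H/ACA particles, had 240 and 221 CPM in treated JeKo-1 cells, against 208 CPM in the JeKo-1 control, and 171 and 165 CPM in treated RL cells, against 305 and 320 CPM in RL controls (log2 difference 1.04 ± 0.08, adjusted p = 4.42e-08). NCL, which encodes nucleolin, had 2169 and 2028 CPM in treated JeKo-1 cells, against 1993 CPM in the JeKo-1 control, and 485 and 480 CPM in treated RL cells, against 758 and 752 CPM in RL controls (log2 difference 0.72 ± 0.08). WDR43, a small subunit assembly factor, had effects of 0.00 ± 0.06 in JeKo-1 and -0.87 ± 0.05 in RL. GNL3 (nucleostemin), NPM1 (nucleophosmin), NOP58 and NHP2 rose in JeKo-1 and fell in RL, with log2 differences of 0.91 ± 0.08, 0.62 ± 0.09, 0.64 ± 0.09 and 0.42 ± 0.09. MYBBP1A, RRS1 and POLR1B fell in both lines, and POLR1B, an RNA polymerase I subunit, met the rule for a shared response. UTP15 was the member whose difference was not called. MYC moved with this list in RL and not in JeKo-1, and its part in the result was not tested.

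**Figure D5:**
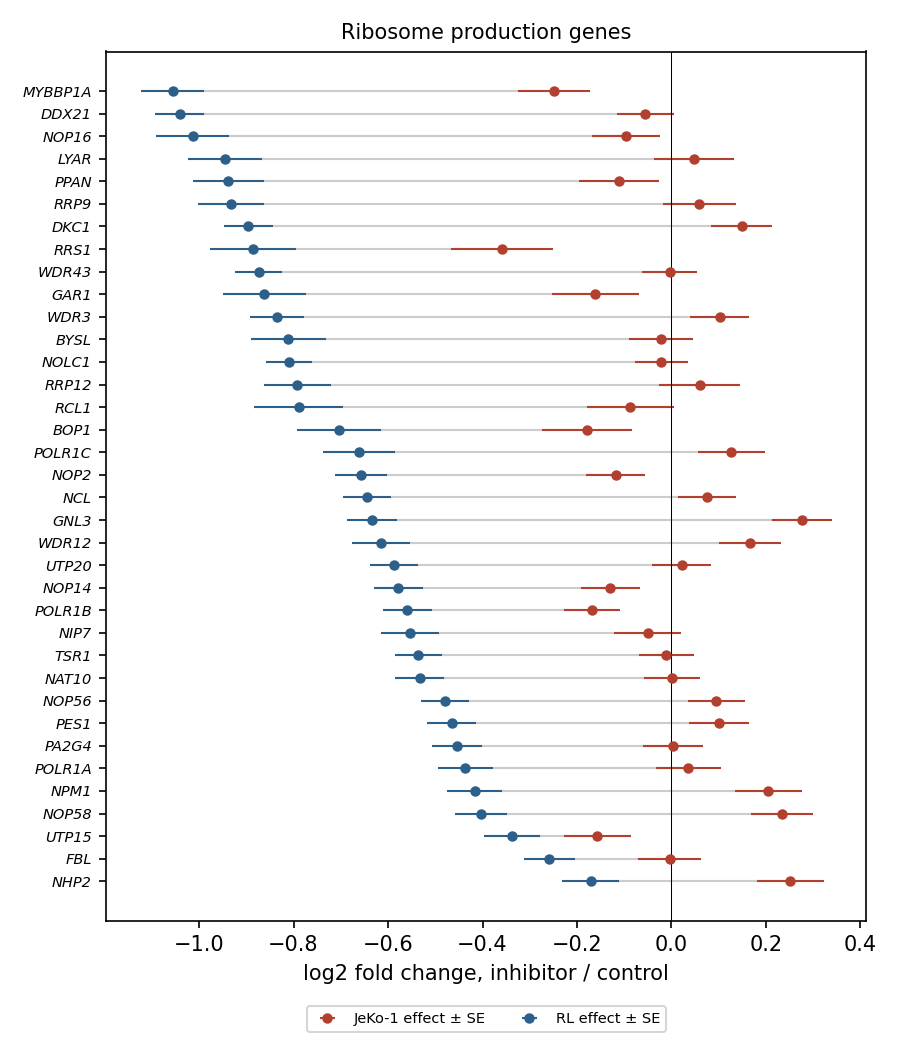
Log2 fold change of inhibitor over control for the 36 tested ribosome production genes, in JeKo-1 (red) and RL (blue), with standard errors and genes ordered by the RL effect. JeKo-1 effects run between -0.36 and 0.28, right of the RL effect for every gene, and RL effects between -1.06 and -0.17.

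MYC with its partner MAX binds the E-box CACGTG, which reads the same on both strands. Promoter windows of 250 bases before to 50 after the start (RefSeq, GRCh38.p14) were found for 31 of the 36 genes, and 11 of the 31 hold the motif (35.5%), against 9.86% of 11769 tested genes with a window and 7.43% of all 27305 windows. Among genes whose difference was called, the motif is in 15.8% of 1114 windows of the more positive genes and in 8.53% of 1125 windows of the more negative ones. A match is a description of these letters and not a binding site. The windows of WDR43 (chr2:28894417-28894716, plus strand) and MYBBP1A (chr17:4555335-4555634, minus strand) are shown as examples from the list that differed most often, with the E-box in capitals.
WDR43: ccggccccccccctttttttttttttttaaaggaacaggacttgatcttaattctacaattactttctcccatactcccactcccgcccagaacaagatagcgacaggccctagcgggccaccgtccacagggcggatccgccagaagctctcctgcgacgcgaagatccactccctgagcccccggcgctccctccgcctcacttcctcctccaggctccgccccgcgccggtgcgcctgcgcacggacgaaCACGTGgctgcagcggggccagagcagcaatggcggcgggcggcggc
MYBBP1A: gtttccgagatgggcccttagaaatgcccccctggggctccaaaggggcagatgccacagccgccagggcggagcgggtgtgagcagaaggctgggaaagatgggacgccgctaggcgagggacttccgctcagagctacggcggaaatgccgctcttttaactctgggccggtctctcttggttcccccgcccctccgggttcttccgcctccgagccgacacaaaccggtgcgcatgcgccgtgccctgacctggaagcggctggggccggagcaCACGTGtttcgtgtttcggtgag

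Genes of tRNA loading and heat shock leaned the same way. Of 20 cytoplasmic tRNA synthetase genes, which load amino acids for translation, 12 were more positive and 1 more negative in JeKo-1 (65.0% called, median log2 difference 0.29), and 14 fell in RL. LARS, for leucine, rose in JeKo-1 and fell in RL (log2 difference 0.57 ± 0.08). The exception was WARS, for tryptophan, also an interferon-responsive gene, at -0.63 ± 0.09. Of 19 heat shock and chaperone genes, 10 were more positive and 1 more negative (57.9%), with a median log2 difference of 0.47 and 13 falls in RL. In JeKo-1 8 of the 19 fell and 2 rose, and 3 met the rule for a shared response. HSPD1, the mitochondrial chaperonin, had 1352 and 1276 CPM in treated JeKo-1 cells, against 1189 CPM in the JeKo-1 control, and 332 and 320 CPM in treated RL cells, against 490 and 470 CPM in RL controls (log2 difference 0.70 ± 0.08). DNAJB4, a cochaperone, instead rose in JeKo-1 by 1.77 ± 0.09, with an RL effect of 0.11 ± 0.09. Of 22 genes of protein folding in the endoplasmic reticulum, 7 were more positive and 2 more negative (40.9%), but their median log2 difference was 0.01 and 11 met the rule for a shared response. Without replicate 2 of treated RL or without replicate 1 of treated JeKo-1, 4 were more positive and 1 was more negative. HSPA5, the chaperone BiP of that compartment, fell in both lines and further in RL (-0.39 ± 0.07 in JeKo-1, -1.14 ± 0.06 in RL).

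Interferon response genes leaned the other way, with 15 of 32 more negative in JeKo-1 and 0 more positive (46.9% called, median log2 difference -0.77). In JeKo-1 13 fell and 4 rose, and in RL 5 fell and 11 rose. Without replicate 1 of treated JeKo-1 the count was 9. MX1, an antiviral GTPase, had 10.9 and 9.40 CPM in treated JeKo-1 cells, against 27.0 CPM in the JeKo-1 control, and 151 and 118 CPM in treated RL cells, against 98.5 and 73.5 CPM in RL controls. The RL groups did not overlap, though libraries within each RL group differed by a wide margin, and the MX1 difference of -2.06 ± 0.20 (adjusted p = 4.33e-07) missed the threshold in the robust fit (adjusted p = 0.06). OAS1, a sensor of double-stranded RNA, had 8.17 and 7.10 CPM in treated JeKo-1 cells, against 8.48 CPM in the JeKo-1 control, and 123 and 108 CPM in treated RL cells, against 63.5 and 59.1 CPM in RL controls (log2 difference -1.07 ± 0.14). IRF9, the DNA-binding subunit of the interferon-activated complex, had 6.59 and 7.72 CPM in treated JeKo-1 cells, against 15.1 CPM in the JeKo-1 control, and 40.7 and 35.0 CPM in treated RL cells, against 35.1 and 32.5 CPM in RL controls, where the groups overlapped. EPSTI1 fell in JeKo-1, where no library exceeded 1.34 CPM, and rose in RL (log2 difference -1.59 ± 0.36).

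The interferon-stimulated response element was searched on both strands as GAAA, any 2 bases and GAAA, and it was not searched together with the E-box. It is in 16 of 25 interferon list windows (64%), against 3.02% of tested genes with a window and 3.65% of all windows, and in 3.5% of windows of the more positive and 2.84% of the more negative genes. The windows of MX1 (chr21:41420308-41420607, plus strand) and EPSTI1 (chr13:42992192-42992491, minus strand), the list members with opposite calls, are shown with the match in capitals.
MX1: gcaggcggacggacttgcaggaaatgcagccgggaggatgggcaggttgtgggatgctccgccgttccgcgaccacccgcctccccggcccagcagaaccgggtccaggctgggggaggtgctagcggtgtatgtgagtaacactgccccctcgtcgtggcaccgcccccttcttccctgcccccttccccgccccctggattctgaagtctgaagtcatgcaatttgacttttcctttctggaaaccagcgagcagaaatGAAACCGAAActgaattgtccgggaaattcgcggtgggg
EPSTI1: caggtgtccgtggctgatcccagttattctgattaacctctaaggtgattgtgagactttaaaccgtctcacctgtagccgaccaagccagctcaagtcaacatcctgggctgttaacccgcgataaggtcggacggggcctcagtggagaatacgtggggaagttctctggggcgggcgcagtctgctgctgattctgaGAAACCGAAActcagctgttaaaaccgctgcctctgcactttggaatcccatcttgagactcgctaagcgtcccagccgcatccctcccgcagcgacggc

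Lysosome and autophagy genes had 14 of 27 members more negative in JeKo-1 and 0 more positive (51.9%, median log2 difference -0.40). In JeKo-1 14 fell and 0 rose, and in RL 3 fell and 6 rose. CTSZ, a cathepsin, had 17.7 and 17.1 CPM in treated JeKo-1 cells, against 56.8 CPM in the JeKo-1 control, and 65.2 and 66.3 CPM in treated RL cells, against 96.6 and 99.7 CPM in RL controls (log2 difference -1.13 ± 0.09, adjusted p = 2.95e-08). TFEB, the transcription factor that controls lysosome genes, fell in JeKo-1 by -0.76 ± 0.12, against 0.23 ± 0.10 in RL. Cathepsin D (CTSD), prosaposin (PSAP) and the autophagy gene WIPI1 fell in JeKo-1 and rose in RL, with log2 differences of -0.74 ± 0.12, -0.44 ± 0.07 and -1.01 ± 0.17.

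FOXO factors are held out of the nucleus by AKT in growing cells. Of 32 FOXO and quiescence genes, 10 rose and 3 fell in JeKo-1, and 23 rose and 1 fell in RL. The difference was called for 11 (34.4%), 10 more negative and 1 more positive in JeKo-1, with a median of -0.32. With DESeq2 2 of the 32 were more negative, and without replicate 1 of treated JeKo-1 or replicate 2 of treated RL 6 were. TSC22D3, the glucocorticoid-induced leucine zipper, had 15.2 and 14.5 CPM in treated JeKo-1 cells, against 14.0 CPM in the JeKo-1 control, and 9.58 CPM in each treated RL library, against 3.48 and 3.38 CPM in RL controls (log2 difference -1.40 ± 0.15, adjusted p = 1.35e-06). YPEL5 rose in both lines and more in RL (log2 difference -0.52 ± 0.10). MXD4 had 3.42 and 4.36 CPM in treated JeKo-1 cells, against 3.73 CPM in the JeKo-1 control, and 3.20 and 3.01 CPM in treated RL cells, against 1.63 and 1.09 CPM in RL controls. The exception was GADD45A, a stress gene, which rose in both lines and more in JeKo-1 (log2 difference 0.46 ± 0.12), a call lost without RL control replicate 1 (adjusted p = 0.0659).

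Smaller sets of members differed in the remaining lists. Of 14 plasma cell genes 5 were more positive and 3 more negative (57.1%), among them CD38, which rose in JeKo-1 to 25.8 and 24.7 CPM in treated cells, against 12.9 CPM in the control, with 14.6 and 14.9 CPM in treated RL cells, against 14.7 and 13.8 CPM in RL controls. PRDM1, the plasma cell regulator, had a JeKo-1 effect of -0.61 ± 0.25 and rose in RL by 0.45 ± 0.09 (log2 difference -1.07 ± 0.27). Of 21 homing and adhesion genes 6 went each way (57.1%). The chemokine receptor CXCR4 rose in both lines and met the rule for a shared response, while CXCR5 fell in both and further in JeKo-1 (log2 difference -1.60 ± 0.25). CCR7, which guides cells into lymph nodes, had a JeKo-1 effect of -0.01 ± 0.10 and rose in RL to 94.3 and 102 CPM in treated cells, against 57.2 and 61.1 CPM in controls. Of 23 cholesterol synthesis genes 7 were more positive and 2 more negative (39.1%). Of 16 apoptosis regulators of the BCL2 family 2 were more positive (BID and BCL2L1) and 3 more negative (BIK, BMF and BCL2), or 31.2% called. BCL2L11, which encodes BIM, had no read in any JeKo-1 library and 104 and 106 CPM in treated RL cells, against 74.9 and 73.3 CPM in RL controls, so the lines could not be compared.

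Lists with shares nearest to the background of 17.8% were the MYC network (18.2%, without MXD4), p53 targets (20.8%), MCL markers (22.2%), proteasome genes (23.1%) and genes of glycolysis and hypoxia (24.2%). Shares were lower for oxidative phosphorylation (4 of 33 called, 12.1%) and histones (2 of 23, 8.70%, both more negative in JeKo-1). The called histone genes, HIST2H2BE and HIST1H2BN, both lost their calls with RLE scaling, with DESeq2 and without replicate 1 of RL control, treated RL or treated JeKo-1. Histone genes rose in both lines, 19 of 23 in JeKo-1 and 21 in RL, and 18 met the rule for a shared response. Their copies are near-identical, so single members are uncertain. Mitosis genes and genes of the G1 to S transition had higher shares called than that background, 29% and 31.2%. Of 31 mitosis genes 17 rose in each line, 8 were shared, and 6 were more positive and 3 more negative in JeKo-1. Of 32 genes of the G1 to S transition 8 were more positive and 2 more negative, and 5 were more positive without RL control replicate 1. CDK4 had a JeKo-1 effect of 0.10 ± 0.06 and an RL effect of -0.34 ± 0.05, a fall, and CCNE1 (cyclin E1) fell in JeKo-1 and rose in RL. CCND2, another D cyclin, fell in both lines by nearly the same amount (-1.77 ± 0.26 in JeKo-1, -1.80 ± 0.05 in RL), but it stood at 1.42 CPM or less in JeKo-1 and its difference had a 95% interval of -0.70 to 0.77, too wide for the rule. None of the T and NK cell, myeloid or red cell markers were called for the difference, and 1 of 10 tested epithelial and stromal markers was, PDGFRB.

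Genes with a shared response were ranked by the smaller of the effects. PTPRJ (CD148), a receptor phosphatase, had 16.5 and 19.4 CPM in treated JeKo-1 cells, against 52.2 CPM in the JeKo-1 control, and 8.37 and 8.59 CPM in treated RL cells, against 21.1 and 19.4 CPM in RL controls (log2 difference -0.29, 95% interval -0.56 to -0.02). CSK, the kinase that restrains SRC family kinases, had 26.5 and 29.5 CPM in treated JeKo-1 cells, against 51.0 CPM in the JeKo-1 control, and 52.6 and 57.0 CPM in treated RL cells, against 99.6 and 98.5 CPM in RL controls (log2 difference -0.01, 95% interval -0.22 to 0.19). The immediate early gene IER2, VASP, an actin regulator, and BHLHE40, a transcriptional repressor, fell by about the same amount in the lines, with log2 differences of 0.05 ± 0.16, -0.02 ± 0.10 and -0.06 ± 0.21. Among shared rises, CD9, a tetraspanin of B cells, had 5.60 and 5.85 CPM in treated JeKo-1 cells, against 1.70 CPM in the JeKo-1 control, and 87.5 and 81.2 CPM in treated RL cells, against 28.9 and 23.5 CPM in RL controls (log2 difference 0.06, 95% interval -0.41 to 0.54). TP53INP1, a stress gene, and CHST15, a sulfotransferase, had log2 differences of -0.05 ± 0.17 and -0.05 ± 0.09. TCL1B, a relative of the AKT coactivator TCL1A, had 303 and 304 CPM in treated JeKo-1 cells, against 151 CPM in the JeKo-1 control, and 70.0 and 68.2 CPM in treated RL cells, against 35.1 and 30.7 CPM in RL controls.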

How the data were processed

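Libraries came from Illumina's TruSeq RNA kit, per the labels' protocols. Per the submitters' processing notes, CASAVA 1.8, BWA, Partek 6.6 and hg19 (GRCh37) were used, with no roles given. The deposited values are raw read counts per RefSeq transcript, per the file headers, and the counting rule is not given in the sources used here. Tables of both lines were joined by transcript (34917 transcripts of 22257 genes), and for each gene the transcript with most reads on average is shown. The authors' fold table and log2 columns were not used.

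All 7 libraries entered 1 fit with 4 groups in edgeR 4.0.16 under R 4.3.3 (filterByExpr, TMM, glmQLFit, glmQLFTest), with 26362 transcripts tested, 3 residual degrees of freedom and a common biological coefficient of variation of 4.35%. P-values were adjusted over all transcripts by Benjamini-Hochberg. Standard errors are the log2 value divided by the root of F, and intervals use the t quantile. Counts of 2 libraries of a group scattered more than Poisson error (chi-square per degree of freedom 3.41 to 4.55), so no deposited library was a second copy of another, which does not show that they come from separate cultures. On simulated counts (26079 transcripts) the test of the difference called 6%, 60%, 96% and 100% of 50 transcripts changed by a log2 of 0.25, 0.5, 1 and 2, and 9 of 25879 unchanged ones. The changed transcripts were drawn from those expected to average at least 50 reads in each line. Recovery was not measured for genes with fewer reads in a line. The simulated libraries were drawn independently, with the spread estimated from these 7 libraries, also for the JeKo-1 control. The 9 false calls therefore cannot speak to libraries that are technical or to an atypical JeKo-1 control. Alternatives were other scaling (RLE, upper quartile), other filters, DESeq2 1.42.0, voom in limma 3.58.1, 1 transcript per gene, a robust fit, a replicate block and leaving out each library other than the JeKo-1 control.

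The text names the 15 largest differences each way, the 10 opposite and 10 shared genes each way with the largest smaller effect (all averaging at least 5 CPM in a group and 1 CPM in each line), 6 genes low in 1 line, up to 3 members of each list by p, and a fixed set. A few genes that the rule names are not reported here. Other list members named were chosen after their values were seen. The comparison, the lists and the rule were chosen with earlier results of these data known. Promoter windows matched 11769 of 15845 tested genes by symbol or synonym.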

Additional observations from a re-analysis of the deposited data

Results flagged for a closer look

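The inhibitor effects of JeKo-1 and RL were called in opposite directions, with the difference itself called by edgeR's quasi-likelihood test, in 288 genes, and 28 of the genes singled out for reporting were among them. Each value below is the log2 difference, JeKo-1 minus RL.

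Of the genes that fell in JeKo-1 and rose in RL, the differences were -3.10 for ADORA2A, -2.62 for KIAA0513, -2.25 for KIAA1274, -2.06 for MX1 and -1.85 for UNC93B1. The next were -1.83 for C10orf54 (the checkpoint protein VISTA), -1.80 for NXPH4, -1.73 for FAM46C, -1.62 for SLC12A7, -1.52 for FBLN2 and -1.44 for IL10RA. CPNE5 had -1.33, CCNE1 -0.75 and the BCR chain CD79A -0.57.

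Of the genes that rose in JeKo-1 and fell in RL, the differences were 6.01 for SLC16A9 (with 4 reads in the JeKo-1 control), 2.12 for OXTR, 1.93 for LEF1, 1.73 for REXO2 (an exonuclease of short RNAs), 1.5 for ESR1 and 1.44 for ITGA4. The next were 1.38 for CERKL, 1.17 for CSDA, 1.11 for GAS7, 1.08 for DMD, 0.93 for IRF4 and 0.92 for ETS2. UNG, the uracil DNA glycosylase, had 0.68 and the leucyl-tRNA synthetase gene LARS 0.57. No group held the 4 libraries needed to look for a library far from the others.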

How the results depend on the processing

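The number of genes whose effect differed was 2815, and it lay between 1901 (DESeq2) and 3241 (no filter on low counts) under the alternatives. With DESeq2 774 genes were more negative in JeKo-1, the RL effect was called in 2953, 467 responses were shared, 153 genes were opposite and 209 had the same sign in both lines. Leaving out 1 library at a time gave 1947 to 2872 genes that differed, 943 to 1438 more negative in JeKo-1, 162 to 294 opposite and 575 to 1083 called in JeKo-1 only, and the low end of each was without replicate 1 of treated JeKo-1. The JeKo-1 control could not be left out, since it is the only one. Where a group was left with 1 library, that library is assumed to vary like the others. Of the 2815 genes, 1870 were also called by DESeq2, 2427 with the replicate block, and 1886 to 2536 with a library left out. RLE and upper quartile scaling kept 2700 and 2652, and put the share more positive at 55.1% and 43.9%, against 49.6% in the fit reported. With DESeq2 that share was 59.3%. Over 170 genes singled out and 15 alternatives, 65 calls were lost and 28 gained, and none changed sign. Lost calls among small list counts beyond those given with the results included proteasome genes (6 more positive, and 1 without replicate 1 of treated JeKo-1) and oxidative phosphorylation genes (4, and 1). Why calls were lost was not tested.

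The replicate numbers were not used to pair the libraries in the fit reported. In RL the deviations of same-numbered libraries from their group means had a correlation of -0.00565 over 15845 genes. That value shows no strong shift common to same-numbered libraries, but it cannot show that they were handled apart. JeKo-1 has 1 control, so the same check could not be made there. With a replicate block within each line 2738 genes differed, 1329 more positive and 1409 more negative in JeKo-1, and among the genes singled out it took away the calls of EGR1, CAMP, GBP5 and KLHL13 and added those of EGR2, PTPRJ and RAG2. Depth limits genes near 0 in a line, such as RAG2 in RL.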

Other observations

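Of 15 tested germinal centre genes, 4 were more positive and 3 more negative in JeKo-1, and the number more positive was 1 with DESeq2 or without RL control replicate 1 and 2 without replicate 1 of treated JeKo-1. The share called in the fit reported was 46.7%, against 17.8% of all genes tested. S1PR2, a receptor that holds cells in the germinal centre, had 7.38 and 7.07 CPM in treated JeKo-1 cells, against 6.24 CPM in the JeKo-1 control, and fell in RL to 3.64 and 4.43 CPM in treated cells, against 6.81 and 5.28 CPM in controls.

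Of 24 tested p53 target genes, 2 were more positive and 3 more negative in JeKo-1. MDM2, which marks p53 for degradation, rose in JeKo-1 to 130 and 137 CPM in treated cells, against 87.4 CPM in the control, while RL had 155 and 162 CPM in treated cells, against 156 and 152 CPM in controls (log2 difference 0.57 ± 0.08). Of 33 genes of glycolysis and hypoxia, 3 were more positive and 5 more negative, and the number more negative ranged between 1 and 11 over the alternatives. ABCA1, which exports cholesterol, had 69.0 and 70.3 CPM in treated JeKo-1 cells, against 58.7 CPM in the JeKo-1 control, and rose in RL to 1.79 and 2.18 CPM in treated cells, against 0.552 and 1.07 CPM in controls, a difference that DESeq2 did not call (adjusted p = 0.0966). ACTB, often used to scale expression, fell in both lines, to 1103 and 1220 CPM in treated JeKo-1 cells, against 1605 CPM in the JeKo-1 control, and to 4020 and 4001 CPM in treated RL cells, against 4509 and 4433 CPM in RL controls.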
